A study of Mus musculus with 175 samples.

Results

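The genes described here encode the proteasome, and they were measured in single myeloid progenitors of the mouse fetal liver. Members were chosen as protein-coding genes with a symbol of the Psma to Psmg families followed by a digit. The choice gave 50 genes of 49585 mouse features, and 49 of them passed a minimum mean count of 1 per cell, as did 11860 mouse genes in all. Psmb11, the catalytic subunit of the thymus, was the member that did not pass. Psmc3ip was kept by its name although it encodes no proteasome subunit but a partner of the recombination machinery.

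The proteasome is a barrel of stacked rings, the 20S core, that cuts proteins marked with ubiquitin. The outer rings are made of alpha subunits and the inner rings of beta subunits, and Psmb6, Psmb7 and Psmb5 carry the active sites named beta1, beta2 and beta5. In immune cells, and in many cells under interferon, Psmb9, Psmb10 and Psmb8 take these places and form the immunoproteasome, which is known for producing peptides for MHC class I. The 19S particle of Psmc ATPases and Psmd subunits feeds the barrel, chaperones assemble it, and Psme activators can cap it instead of the 19S particle.

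All cells came from E14.5 livers of embryos on a C57BL/6 background crossed with ICR. Every embryo carried 1 dual reporter of Runx1, in which human CD4 marks use of the P2 promoter. The article names the allele P1-GFP::P2-hCD4/+, whereas 1 field of the sample labels has P2-GFP in place of P1-GFP. Megakaryocyte-erythroid progenitors (MEPs) and common myeloid progenitors (CMPs), both CD41- CD150+ by the article, were sorted as single cells by presence (P2+) or absence (P2-) of human CD4. After filtering, MEPs numbered 56 (P2-) and 47 (P2+) and CMPs 27 (P2-) and 42 (P2+). Each cell was a Smart-Seq2 library of its own, with 571806 to 2827426 reads in total and 295064 to 1540631 on mouse genes. Livers of 2 litters were pooled before the sort. Each population is therefore 1 sample, no difference between populations could be tested, and cells are not replicates.

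Levels are pooled CPM, the reads of a gene summed over the cells of a population scaled to 1000000 mouse reads, and ratios are log2 ratios of these. The intervals in parentheses are at 95% and cover counting error only, or, for shares of cells, the sampling of cells within 1 sample. Members at least 1.5-fold apart were counted, and the count in each comparison is given with the share of all 11860 genes that were as far apart in the same direction. The 4 comparisons share populations with each other and are not independent.

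The summed markers of lineages and cell types differed between the sorted populations. Summed over 6 erythroid markers, P2- MEPs had 1653 CPM, P2+ MEPs 776 CPM, P2- CMPs 480 CPM and P2+ CMPs 280 CPM. Granulocyte/monocyte markers ran the other way, with 15.9, 65.9, 402 and 653 CPM in the same order, and stem and multipotent markers with 8.72, 119, 659 and 1010 CPM. Megakaryocytic markers summed to 53.9 CPM in P2- MEPs and to 474, 532 and 618 CPM in P2+ MEPs, P2- CMPs and P2+ CMPs. In spite of their label, P2- MEPs had no read of Gp1bb, Gp9 and Pf4, and 22 of these cells had no read of any megakaryocytic marker. Of the macrophage markers, Adgre1, C1qa, C1qb, C1qc and Cd5l had no read in any population. Of the lymphoid markers, Cd3e, Il7r and Rag1 had none, and Nkg7 had 0.915, 12.7, 17.6 and 36.4 CPM in the 4 populations. Hepatocyte markers summed to 10.6 to 24.7 CPM. Endothelial markers summed to 86.4 CPM in P2- MEPs, 91.8 CPM in P2+ MEPs, 271.02 CPM in P2- CMPs and 305.96 CPM in P2+ CMPs.

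The stretches upstream of 3 of the genes that fill the catalytic places are shown. They are 120 bases of GRCm38.p6 (RefSeq), read on the strand of the gene, at chr14:54618023-54618142 (minus strand) for Psmb5, chr11:70525237-70525356 (plus strand) for Psmb6 and chr8:105938445-105938564 (minus strand) for Psmb10. They end next to the annotated exons. Capitals mark the core of the antioxidant response element, TGACNNNGC, the element through which Nfe2l1 and Nfe2l2 are known to act on proteasome genes.
Psmb5: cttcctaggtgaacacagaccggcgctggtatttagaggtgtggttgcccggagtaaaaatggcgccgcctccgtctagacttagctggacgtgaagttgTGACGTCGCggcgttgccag
Psmb6: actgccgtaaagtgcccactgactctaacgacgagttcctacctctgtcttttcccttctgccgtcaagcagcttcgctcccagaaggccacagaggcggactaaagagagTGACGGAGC
Psmb10: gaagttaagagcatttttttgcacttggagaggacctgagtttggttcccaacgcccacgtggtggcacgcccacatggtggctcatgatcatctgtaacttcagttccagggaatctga
The match of Psmb5 begins 47 bases before its RefSeq start and that of Psmb6 begins 9 bases before. Over windows from 250 bases before to 50 after the start, searched on both strands, TGACNNNGC was found at 6 of 42 members with a RefSeq promoter (14.3%) and at 14% of 27025 genes. GAAANNGAA, a core of the interferon response element, was found at 7 of 42 members (16.7%) and at 9.76% of genes, and CCAAT at 15 of 42 members (35.7%) and at 41.1% of genes. None of Psmb8, Psmb9 and Psmb10 held TGACNNNGC or GAAANNGAA in this window, while Psme1 held GAAANNGAA.

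Among the catalytic subunits, Psmb8 and Psmb9 were nearly silent in P2- MEPs and several-fold higher in the other 3 populations, while Psmb10 was highest in P2- MEPs. The 3 immunoproteasome genes thus did not move together. Their constitutive counterparts Psmb6 and Psmb5 differed little between populations, and Psmb7 was lowest in P2+ MEPs.

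Psmb8 (beta5i; GRCm38 chr17:34197721-34201454, plus strand) had 7.84 CPM (6.88 to 8.90) in P2- MEPs, 32.7 CPM (30.8 to 34.8) in P2+ MEPs, 83.6 CPM (79.5 to 87.9) in P2- CMPs and 91.6 CPM (88.5 to 94.8) in P2+ CMPs. No interval overlapped its neighbour in this order, but the intervals cover counting error only and not the spread between cells. Across cells the median was 0 CPM in P2- MEPs, with a highest cell at 86.2 CPM, and 19.99 CPM in P2+ MEPs, with a highest cell at 189 CPM. In P2- CMPs cells ran from 0 to 302.02 CPM with a median of 51.7 CPM, and in P2+ CMPs from 2.04 to 303.1 CPM with a median of 81.3 CPM. Single cells of all 4 populations therefore overlapped. For P2+ over P2- cells, the log2 ratio was 2.06 (1.86 to 2.27) in MEPs and 0.13 (0.04 to 0.22) in CMPs. The log2 ratio of CMPs over MEPs was 3.41 (3.22 to 3.62) in P2- cells and 1.48 (1.38 to 1.59) in P2+ cells.

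Psmb9 (beta1i; GRCm38 chr17:34181987-34187764, minus strand) had 6.50 CPM (5.63 to 7.47) in P2- MEPs, 28.1 CPM (26.3 to 30.04) in P2+ MEPs, 52.03 CPM (48.8 to 55.4) in P2- CMPs and 52.4 CPM (50.1 to 54.8) in P2+ CMPs. The intervals of the CMP populations overlapped. The median cell was at 0 CPM in all populations but P2+ CMPs, where it was 44.3 CPM, and the highest cell had 103, 213.1, 242.04 and 205 CPM in the same order. For P2+ over P2- cells, the log2 ratio was 2.11 (1.89 to 2.34) in MEPs and 0.01 (-0.10 to 0.12) in CMPs. The log2 ratio of CMPs over MEPs was 3.0 (2.78 to 3.23) in P2- cells and 0.90 (0.78 to 1.01) in P2+ cells.

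Psmb10 (beta2i; GRCm38 chr8:105935735-105938444, minus strand) ran the other way. It had 266.7 CPM (260.99 to 272.6) in P2- MEPs, 168 CPM (164 to 173) in P2+ MEPs, 168 CPM (162 to 174) in P2- CMPs and 128 CPM (124 to 132) in P2+ CMPs. In P2- MEPs no cell was below 50.9 CPM, the median was 277.9 CPM and the highest cell had 589 CPM. The median cells of P2+ MEPs, P2- CMPs and P2+ CMPs had 149, 146 and 117 CPM, and each of these populations held cells at 0 CPM. For P2+ over P2- cells, the log2 ratio was -0.67 (-0.72 to -0.62) in MEPs and -0.40 (-0.46 to -0.33) in CMPs, and that of CMPs over MEPs was -0.67 (-0.73 to -0.61) in P2- cells and -0.40 (-0.45 to -0.34) in P2+ cells.

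**Figure D1:**
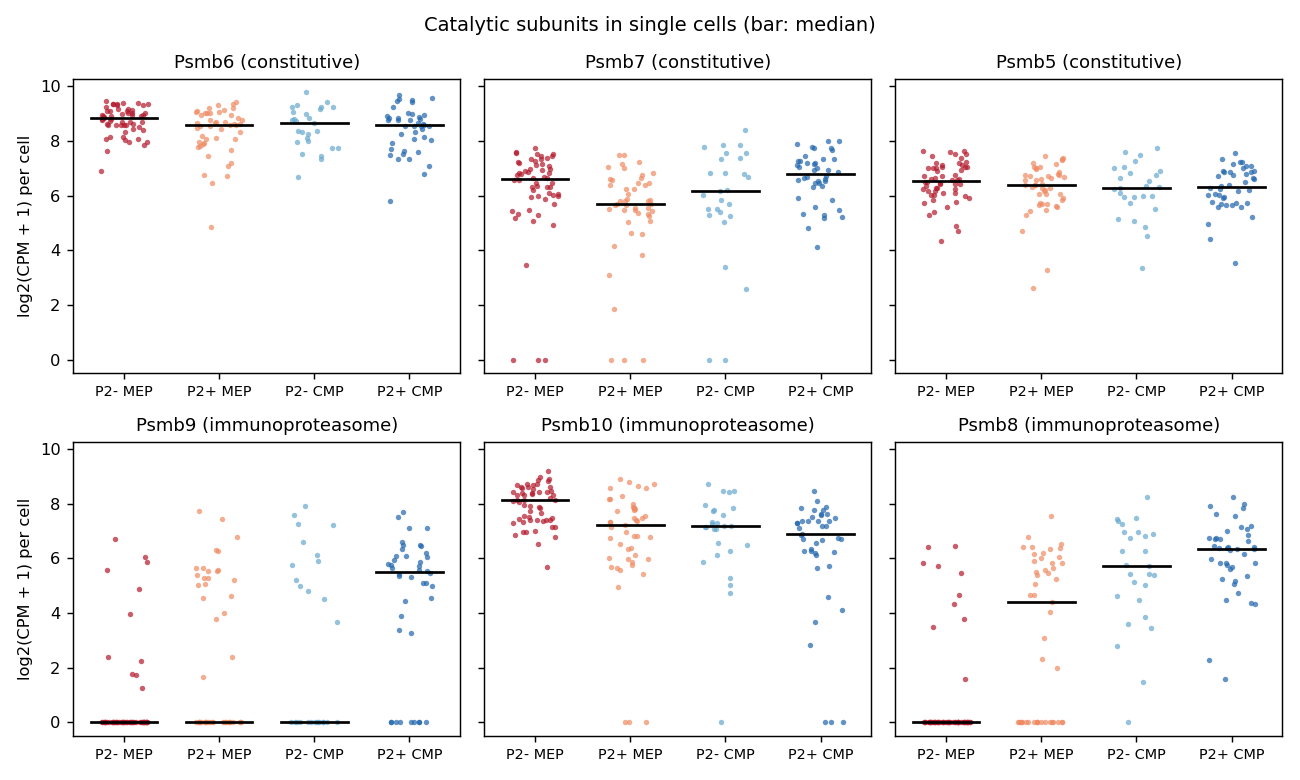
Level of the 6 exchangeable catalytic subunits in each cell, as log2(CPM + 1) on the vertical axis, with 1 point per cell, the 4 populations on the horizontal axis and the median as a bar. Psmb8 and Psmb9 sit at 0 in most P2- MEPs, whereas Psmb10 has no cell at 0 there and Psmb5 and Psmb6 have none in any population.

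The share of cells with a read showed the same order. After thinning every cell to 100000 mouse reads, Psmb8 was read in 8 of 56 P2- MEPs (14.3%, 6.38 to 26.2), 27 of 47 P2+ MEPs (57.4%, 42.2 to 71.7), 23 of 27 P2- CMPs (85.2%, 66.3 to 95.8) and 41 of 42 P2+ CMPs (97.6%, 87.4 to 99.9). Without thinning it was read in 10, 28, 26 and 42 cells. Psmb9 was read in 7 P2- MEPs (12.5%, 5.18 to 24.1), 19 P2+ MEPs (40.4%, 26.4 to 55.7), 13 P2- CMPs (48.1%, 28.7 to 68.1) and 31 P2+ CMPs (73.8%, 58.0 to 86.1), and without thinning in 11, 22, 13 and 33 cells. Psmb10 was read in all 56 P2- MEPs and 44 P2+ MEPs, and in 26 cells of the P2- and 39 of the P2+ CMPs.

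In thinned cells, reads of both Psmb8 and Psmb9 were found in 2 P2- MEPs and 11 P2+ MEPs, and in 11 cells of the P2- and 31 of the P2+ CMPs. Only Psmb8 was read in 6, 16, 12 and 10 cells in this order, and only Psmb9 in 5, 8, 2 and 0 cells. Of the Psmb8 reads of P2- MEPs a single cell held 29.6%, and the cells with the most reads in P2+ MEPs, P2- CMPs and P2+ CMPs held 9.48%, 20.03% and 7.93%. For Psmb9 such cells held 31.7%, 29.6%, 26.9% and 8.29% of the reads in the 4 populations. Without the cell of highest CPM in each population, the P2+ over P2- log2 ratio in MEPs was 2.42 for Psmb8 and 2.18 for Psmb9, and in CMPs it was 0.29 and 0.30. The P2+ over P2- ratios of CMPs thus depended on single cells, and the median of all genes in that comparison moved by 0.10 in this setting. For CMPs over MEPs the ratios of Psmb8 and Psmb9 in this setting were 3.64 and 3.15 in P2- cells and 1.51 and 1.27 in P2+ cells.

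The granulocyte/monocyte, stem and multipotent, megakaryocytic and endothelial sums and Nkg7 had the populations in the same order as Psmb8, lowest in P2- MEPs and highest in P2+ CMPs, and the erythroid sum had them in the opposite order. In cells without a read of any of the 6 granulocyte/monocyte markers, Psmb8 had 4.42 CPM (3.52 to 5.47) in 35 P2- MEPs and 29.5 CPM (26.1 to 33.3) in 12 P2+ MEPs. Psmb9 had 2.68 CPM (1.998 to 3.53) and 22.7 CPM (19.7 to 26.03) in the same cells. In cells without a read of any of the 6 stem and multipotent markers, Psmb8 had 6.89 CPM (5.80 to 8.12) in 37 P2- MEPs and 23.4 CPM (19.9 to 27.4) in 8 P2+ MEPs. Psmb9 had 4.75 CPM (3.86 to 5.79) and 2.26 CPM (1.27 to 3.73) there, the reverse of its order over all MEPs, and the lower value rests on 15 reads. All CMPs had reads of both lists. These are values of few cells of 1 sample per population, and the part of any marker list in the differences of Psmb8 and Psmb9 was not tested.

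Of the constitutive counterparts, Psmb6 (beta1) had 455 CPM (447 to 462) in P2- MEPs, 385 CPM (378.5 to 392) in P2+ MEPs, 396 CPM (386 to 405) in P2- CMPs and 395 CPM (389 to 401) in P2+ CMPs, and it was read in every cell. Psmb5 (beta5) had 102 CPM (98.2 to 105), 89.1 CPM (85.8 to 92.4), 94.2 CPM (89.9 to 98.8) and 87.6 CPM (84.5 to 90.7) in the same order. Psmb7 (beta2) had 98.7 CPM (95.2 to 102), 64.2 CPM (61.4 to 67.02), 107 CPM (102 to 112) and 122 CPM (119 to 126), with a log2 ratio of P2+ over P2- of -0.62 (-0.70 to -0.54) in MEPs and 0.19 (0.12 to 0.27) in CMPs. Counts of Psmb5 are uncertain, since 42.1% of the 70-base windows of its exons recur in other genes, among them a pseudogene. The exons of Psmb5 also overlap Mir686 over 12.1% of their length, and those of Psmb7 overlap Nek6 over 11.8%. Those of Psmb8 overlap Gm20496 over 14.7% and those of Psmb9 overlap Tap1 over 5.79%, and the counting took no strand. The effect of shared windows and overlaps on the pair shares below was not tested.

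To set the members of a pair against each other, reads were divided by exon length, the union of all annotated exons, which counts rarely used exons in full. At beta5 the Psmb8 share of Psmb8 and Psmb5 in P2- MEPs was 2.01% (1.76 to 2.28) and in P2+ MEPs 8.90% (8.33 to 9.50), whereas P2- CMPs had 19.1% (18.04 to 20.2) and P2+ CMPs 21.8% (20.9 to 22.6). At beta1 the Psmb9 share was 0.726% (0.628 to 0.834), 3.60% (3.37 to 3.84), 6.30% (5.91 to 6.72) and 6.36% (6.07 to 6.65) in the same order. At beta2 the Psmb10 share was 84.4% (83.9 to 85.0), 84.0% (83.3 to 84.7), 75.9% (74.9 to 77.0) and 67.7% (66.8 to 68.6). As shares of reads, not divided by length, Psmb8 made up 7.16%, 26.9%, 47.01% and 51.1% at beta5 in this order, Psmb9 1.41%, 6.80%, 11.6% and 11.7% at beta1, and Psmb10 73.0%, 72.4%, 61.1% and 51.1% at beta2. Psmb9 was thus the smaller and Psmb10 the larger member of its pair on both scales in all 4 populations, while at beta5 the CMPs had nearly as many or more reads of Psmb8 than of Psmb5.

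Over the 3 positions together, the shares of Psmb8, Psmb9 and Psmb10 in P2- MEPs were 29.4% (28.9 to 29.97) and in P2+ MEPs 26.4% (25.8 to 26.9). P2- CMPs had 28.4% (27.7 to 29.1) and P2+ CMPs 25.3% (24.8 to 25.7). The order of the populations in this sum depends on the exon lengths. As shares of reads, the sums were 30.02%, 29.8%, 33.7% and 31.01% in the same order. In every population Psmb10 was the largest of the 3 terms of the sum.

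**Figure D2:**
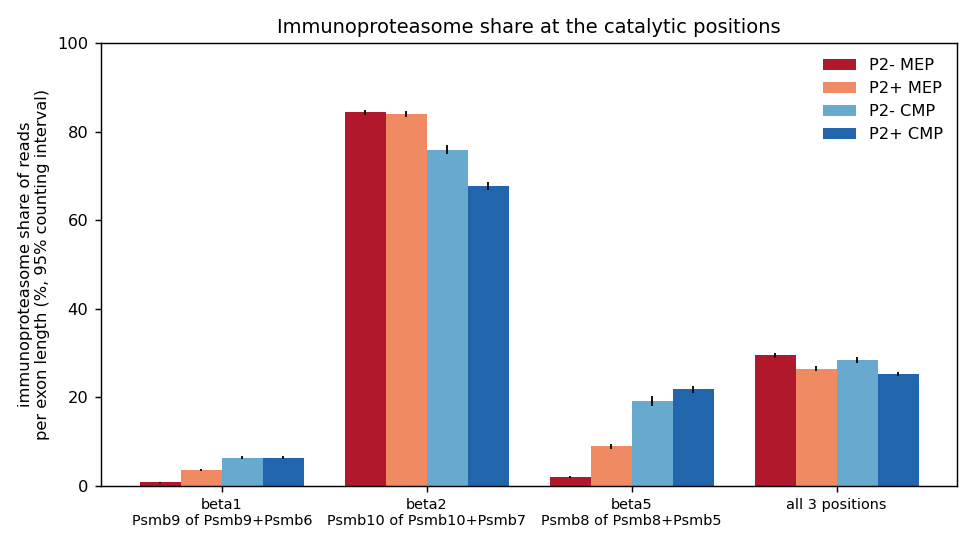
Immunoproteasome share of reads per exon length, in percent, at the beta1, beta2 and beta5 positions and over all 3, with 1 bar per population and 95% counting intervals. At beta5 the share is 2.01% in P2- MEPs and 21.8% in P2+ CMPs, and at beta2 it is 84.4% and 67.7%.

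The tissue-specific subunits were low. Psma8, an alpha subunit known from testis, had 12.6 CPM in P2- MEPs, 16.1 CPM in P2+ MEPs, 19.3 CPM in P2- CMPs and 32.8 CPM in P2+ CMPs, and its median cell was at 0 CPM in all populations. It was read in 16 of 56, 11 of 47, 5 of 27 and 11 of 42 thinned cells, and 1 cell held 46.05% of its reads in P2- CMPs and 38.7% in P2+ MEPs. For P2+ over P2- CMPs, the log2 ratio was 0.77 (0.59 to 0.94), and 1.28 without the leading cells. Psmb11 had 4 reads over all P2- MEPs and 26 over all P2+ MEPs, 96.2% of these in 1 cell. It had none in CMPs, with upper ends of the counting interval at 0.201 CPM in P2- CMPs and 0.101 CPM in P2+ CMPs.

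Between P2+ and P2- MEPs, 2 of 49 members were at least 1.5-fold higher (24% of all genes) and 4 of 49 at least 1.5-fold lower (12.7% of all genes). The higher ones were Psmb8 and Psmb9, and the lower ones Psmb10, Psmb7, Psmc6 and Psmd9. Without mitochondrial genes and Rn18s-rs5 in the denominator Psmb7 was at -0.583, just under 1.5-fold, which left 3 lower members (11.8% of all genes), and without the leading cells 5 were lower (15.6% of all genes). Psmc6 had 262.5 CPM in P2- and 169 CPM in P2+ MEPs. Small differences in 1 direction were frequent, since 37 of 49 members were below a ratio of 1, as were 45.2% of all genes. The median log2 ratio of the members was -0.26, while that of all genes was 0.05. It ranged from -0.28 to -0.22 under the other scalings and filters, and the direction was kept in all of them.

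The constitutive 20S core, Psma1 to Psma7 and Psmb1 to Psmb7, had a median log2 ratio of -0.28 in this comparison, with 13 of 14 genes below 0 and Psma4 at 0.00. Summed over its 14 genes, it had 6010 CPM in P2- MEPs, 4977 CPM in P2+ MEPs, 5335 CPM in P2- CMPs and 5527 CPM in P2+ CMPs. Cells ran from 3700 to 8313 CPM in P2- MEPs with a median of 6000.3 CPM, and from 2594 to 7216 CPM in P2+ MEPs with a median of 4976 CPM, so that the populations overlapped widely. In CMPs the medians of the sum were 5212 CPM in P2- cells and 5223 CPM in P2+ cells.

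The 19S particle of 17 genes behaved alike in MEPs, with a median log2 ratio of -0.28 and 16 of 17 genes below 0. Its sum was 5222 CPM in P2- MEPs, 4298 CPM in P2+ MEPs, 4194 CPM in P2- CMPs and 4133 CPM in P2+ CMPs. The 6 ATPases, which unfold the substrate, were all lower in P2+ MEPs, with log2 ratios from -0.64 for Psmc6 to -0.23 for Psmc3. Psmd8 of the lid, at 0.14, was the subunit of the particle that lay above 0.

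**Figure D3:**
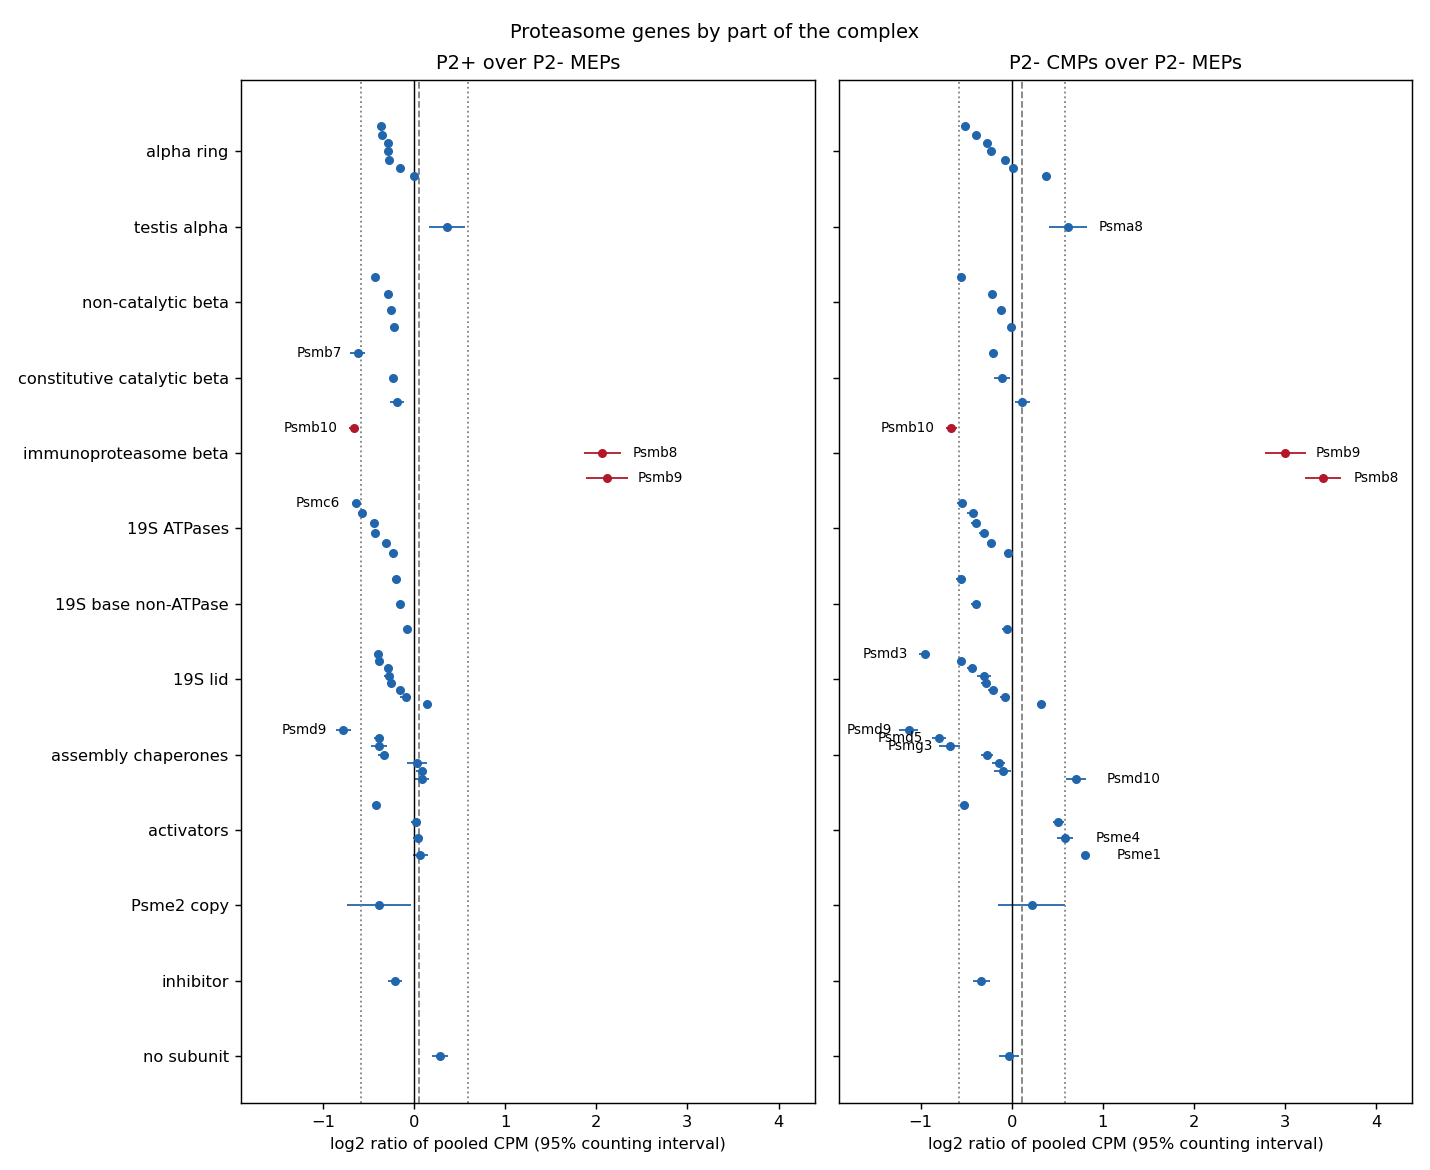
Log2 ratio of pooled CPM of 49 members with 95% counting intervals on the horizontal axis, by part of the complex on the vertical axis, for P2+ over P2- MEPs and for P2- CMPs over P2- MEPs. Dotted lines mark 1.5-fold and dashed lines the median of all genes, and members past 1.5-fold are named. Psmb8 and Psmb9 (red) stand far to the right of all other members in both panels, and Psmb10 (red) is on the left.

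Between P2+ and P2- CMPs the members were close together. At least 1.5-fold higher was 1 of 49 members, Psma8 (17% of all genes), and at least 1.5-fold lower was 1 of 49, Psme4 (18.2% of all genes). The median log2 ratio was 0.04 for the members and -0.02 for all genes. Ratios below 1 were seen for 17 of 49 members and 51.6% of all genes. Of the 20S core, 10 of 14 genes lay above 0, from Psmb5 at -0.11 to Psmb7 at 0.19.

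P2- CMPs were compared with P2- MEPs across the lineage gates. At least 1.5-fold higher were 6 of 49 members (32.3% of all genes), Psmb8, Psmb9, Psme1, Psme4, Psmd10 and Psma8, and at least 1.5-fold lower were 5 of 49 (17.6% of all genes), Psmb10, Psmd3, Psmd5, Psmd9 and Psmg3. With size factors in place of total reads these counts were 4 and 11, beside 29.3% and 20.9% of all genes, whose median moved by -0.10. Without the leading cells the ratio of Psma8 turned from 0.62 to -0.03, and those of Psmd10 and Psme4 were 0.46 and 0.53, under 1.5-fold. Psma8 and Psme4 were under it with size factors too, and Psma8 and Psmd10 with equal weight for every cell. The median log2 ratio was -0.22 for the members and 0.11 for all genes, and 37 of 49 members were below a ratio of 1 (44.6% of all genes). Of the 19S particle 16 of 17 genes were below 0, and Psmd3 of the lid, with 327.4 CPM in P2- MEPs and 169 CPM in P2- CMPs, had a log2 ratio of -0.96 (-1.02 to -0.90).

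P2+ CMPs against P2+ MEPs gave 8 of 49 members at least 1.5-fold higher (25.5% of all genes), which were Psmb8, Psmb9, Psmb7, Psma1, Psma8, Psme1, Psme2 and Psme2b, and 2 of 49 at least 1.5-fold lower (20% of all genes), which were Psmd3 and Psmd7. The median log2 ratio of the members was 0.05 beside 0.01 for all genes, and it turned to -0.06 with size factors, which moved the median of all genes by -0.11. Psmb7 differed by a log2 ratio of 0.93 (0.85 to 1.01) and Psma1 by 0.64 (0.60 to 0.67). With size factors Psma1 (0.52) and Psme2 (0.52) fell under 1.5-fold, and 6 members were higher, beside 22.5% of all genes, whose median moved by -0.11. Psmd3 had 293.7 CPM in P2+ MEPs and 163 CPM in P2+ CMPs (log2 ratio -0.85, -0.89 to -0.80), and Psmd7 445 and 280 CPM (-0.67, -0.70 to -0.63).

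Over the 4 populations, 31 of 49 members had their highest level in P2- MEPs, where 25.2% of all genes did. P2+ CMPs were highest for 12 members, and P2+ MEPs and P2- CMPs for 3 each. The shares of all genes highest in these populations were not computed, so that these counts cannot be set against all genes. All members together took 1.33% of the mouse reads of P2- MEPs and 1.11% of those of P2+ MEPs, and 1.16% and 1.17% of those of P2- and P2+ CMPs.

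Of the activators, Psme1 and Psme2 differed between MEPs and CMPs and little between P2- and P2+ cells. Psme1, a subunit of the 11S cap that interferon induces in many cells, had 192 CPM in P2- MEPs, 198 CPM in P2+ MEPs, 336.7 CPM in P2- CMPs and 350.7 CPM in P2+ CMPs. Its log2 ratio of CMPs over MEPs was 0.81 (0.76 to 0.86) in P2- cells and 0.83 (0.78 to 0.87) in P2+ cells, and that of P2+ over P2- MEPs was 0.04 (-0.01 to 0.09). Psme2, its partner, had 183, 185, 260.7 and 286.3 CPM in the same order. In MEPs the P2+ over P2- log2 ratio of Psme2 was 0.02 (-0.04 to 0.07), beside 2.06 for Psmb8 and 2.11 for Psmb9.

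Psme3, the nuclear activator, was highest in P2- MEPs, with 342.1 CPM beside 255.2, 238.2 and 230 CPM in P2+ MEPs, P2- CMPs and P2+ CMPs. Psme4, which caps the core in the nucleus and in testis, had 75.5, 78.9, 113 and 63.5 CPM, and the log2 ratio of P2+ over P2- CMPs was -0.84 (-0.92 to -0.75). Psme2b had 3.80 to 6.38 CPM and shares 63.3% of its 70-base windows with Psme2 or Gm7928, so that its reads cannot be told apart from theirs with certainty. The inhibitor Psmf1 had 91.8, 79.2, 72.8 and 67.5 CPM.

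Of the assembly chaperones, Psmd9, which acts on the 19S base, had 110 CPM in P2- MEPs, 64.2 CPM in P2+ MEPs, 50.3 CPM in P2- CMPs and 73.3 CPM in P2+ CMPs. Its median cell had 95.7, 24.6, 56.9 and 63.6 CPM, and all populations held cells at 0 CPM. Its exons overlap Gm26745 over 25.5% of their length. Psmd5, another chaperone of the base, had a log2 ratio of P2- CMPs over P2- MEPs of -0.80 (-0.88 to -0.72), Psmg3 of the 20S chaperones had -0.68 (-0.80 to -0.57), and Psmd10, also known as gankyrin, had 0.70 (0.59 to 0.82). In P2- CMPs, 1 cell held 24.1% of the Psmd10 reads, and without the leading cells its ratio was 0.46.

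Per exon length, the levels spanned a wide range within each part of the complex. In P2- MEPs, Psma6 was the highest alpha subunit with 391 CPM per kb and Psma3 the lowest with 120 CPM per kb. Psmb2 had 373.5 and Psmb1 102 CPM per kb among the non-catalytic beta subunits, and Psmc5 had 234.99 and Psmc2 70.1 CPM per kb among the ATPases. Psmd4, a ubiquitin receptor, had 112 and Psmd1, a scaffold of the base, 36.8 CPM per kb. In the lid Psmd7 had 240 CPM per kb in P2- MEPs and Psmd13 41.1 CPM per kb, and in P2+ CMPs Psmd8 led with 126 CPM per kb. Psmg4 was the highest chaperone in each population, with 143 to 162 CPM per kb, and Psmd9 the lowest, with 6.94 to 15.2 CPM per kb. Psmc3ip had 32.7 to 40.7 CPM per kb.

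**Figure D4:**
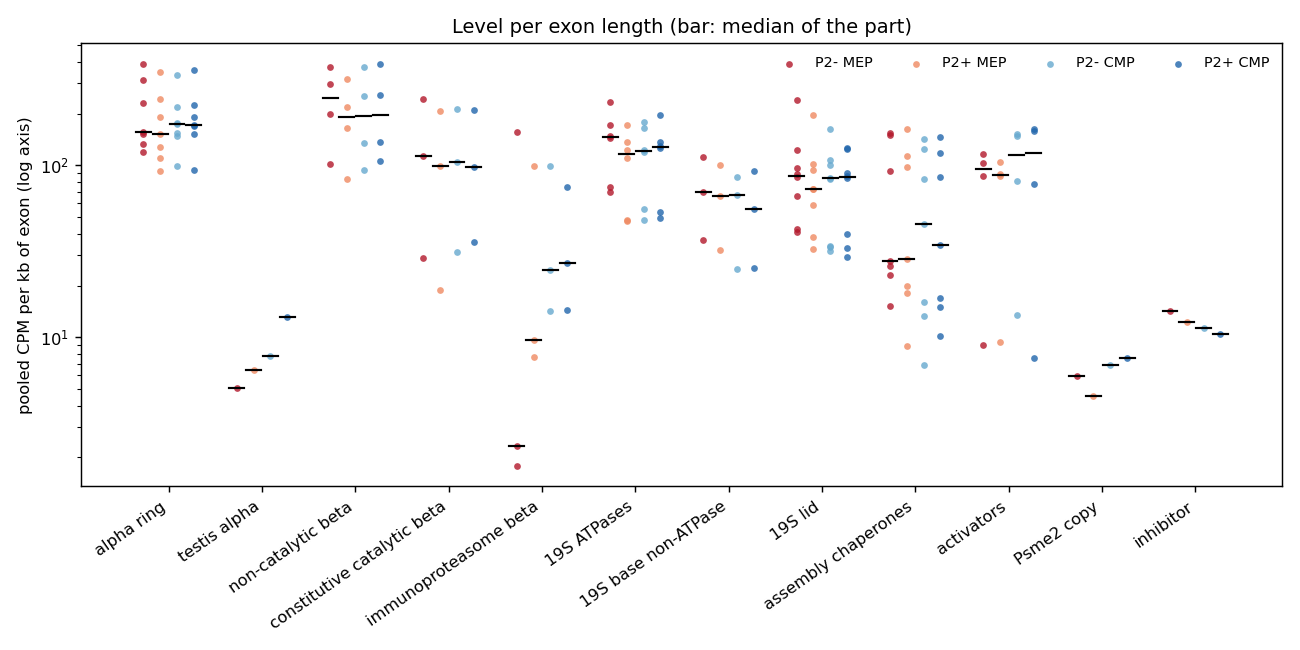
Pooled CPM per kb of exon on a log axis for the members of each part of the complex, with 1 point per gene and population and the median of the part as a bar. The medians of the alpha ring stay between 152 and 173 CPM per kb, while that of the 3 immunoproteasome genes goes from 2.32 CPM per kb in P2- MEPs to 27.1 CPM per kb in P2+ CMPs.

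The members also differed in how evenly they were read among cells. The median coefficient of variation over 49 members was 0.446 for P2- MEPs and 0.590 for P2+ MEPs, and 0.620 and 0.549 for P2- and P2+ CMPs. The most even member was Psmb3 in P2- MEPs (0.274), and the least even was Psmb9 in the same population (3.19). After thinning, 32 members were read in all P2- MEPs, 18 in all P2+ MEPs, and 21 each in all P2- CMPs and all P2+ CMPs. The numbers of cells differ between the populations. Neither value was computed over all genes, so that these differences cannot be called particular to the members.

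A pair of lists of related genes was read beside the members. Of 20 measured interferon and class I presentation genes, 7 were at least 1.5-fold higher and 2 lower in P2+ than in P2- MEPs (24% and 12.7% of all genes), with a median log2 ratio of 0.22. In P2- CMPs over P2- MEPs 12 were higher and 0 lower (32.3% and 17.6% of all genes), with a median of 1.09, and in P2+ CMPs over P2+ MEPs 10 were higher and 2 lower (25.5% and 20% of all genes), with a median of 0.64. In P2+ over P2- CMPs 2 were higher and 3 lower (17% and 18.2% of all genes), with a median of 0.21. The lower genes were Ifngr1 and Irf9 in P2+ over P2- MEPs, and Irf7 and Tap1 in P2+ CMPs over P2+ MEPs. In P2+ over P2- CMPs they were Ifit1, Irf7 and Stat2.

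Tap1, which pumps peptides into the endoplasmic reticulum and has its start close to that of Psmb9, on the opposite strand, had 7.68 CPM in P2- MEPs, 33.4 CPM in P2+ MEPs, 18.3 CPM in P2- CMPs and 21.3 CPM in P2+ CMPs. Its log2 ratio of P2+ over P2- MEPs was 2.12 (1.92 to 2.33), beside 2.11 for Psmb9, whereas in P2+ CMPs over P2+ MEPs it was -0.65 (-0.78 to -0.51), beside 0.90 for Psmb9. Tap2 had 12.2, 9.91, 17.2 and 16.5 CPM. B2m, the light chain of class I, had 211.04, 330.6, 503 and 648 CPM.

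Of the transcription factors in the list, Irf8 had no read over all P2- MEPs. It had 5.57 CPM in P2+ MEPs, 19.03 CPM in P2- CMPs and 23.7 CPM in P2+ CMPs, which makes P2+ MEPs at least 56.9-fold higher against a floor of 3 reads over the population. Irf1 had 2.81, 2.79, 20.2 and 29.2 CPM in the 4 populations. Ifitm3, a membrane protein that interferon induces, had 2.45, 34.6, 321.4 and 241.07 CPM. Ifit3 had no read in any population and Ifit1 had none in P2- MEPs, P2+ MEPs and P2+ CMPs.

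Of 26 measured genes of ubiquitin handling and proteasome assembly or control, 4 were at least 1.5-fold higher and 2 lower in P2+ than in P2- MEPs (24% and 12.7% of all genes) and 3 and 3 in P2+ than in P2- CMPs (17% and 18.2% of all genes). In P2- CMPs against P2- MEPs the counts were 2 and 3 (32.3% and 17.6% of all genes), and in P2+ CMPs against P2+ MEPs 1 and 4 (25.5% and 20% of all genes). Each count was a smaller part of the list than the share of all genes beside it. Nfe2l1, the factor that restores proteasome genes when proteasomes fail, had 44.3 CPM in P2- MEPs, 21.3 CPM in P2+ MEPs, 29.998 CPM in P2- CMPs and 40.1 CPM in P2+ CMPs. Nfe2l2 had 124, 97.8, 81.9 and 48.03 CPM. Adrm1, a ubiquitin receptor of the 19S particle outside the name rule, had 190, 149, 111 and 124 CPM, and Pomp, the maturation factor of the core, 321.9, 283.7, 297.96 and 331.3 CPM.

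Zfand5 and Zfand2a, zinc-finger proteins that bind the 19S particle, were higher in P2+ cells in both compartments. Zfand5 had 59.3 and 116 CPM in P2- and P2+ MEPs and 73.8 and 145 CPM in P2- and P2+ CMPs. Zfand2a had 5.26, 11.2, 5.62 and 12.7 CPM in the same order. Ubqln2, which brings ubiquitinated proteins to the proteasome, had 13.2 and 24.7 CPM in P2- and P2+ MEPs and 29.7 and 15.98 CPM in P2- and P2+ CMPs. Ngly1, which processes Nfe2l1, had 19.996, 40.6, 63.4 and 49.8 CPM.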

How the data were processed

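Raw counts of reads were deposited by the authors for each gene in each cell, from Smart-Seq2 libraries without molecular identifiers. Per the labels and the article, paired reads were trimmed with Trimmomatic 0.36, aligned with STAR 2.4.2a to GRCm38 and ERCC sequences and counted with HTSeq 0.6.1p1 over exons of GENCODE M12 without strand. The unmapped share is a percent of a cell's reads, as deposited. Tally rows were left out of totals. Reads ambiguous between genes were 25.6% of the uniquely mapped reads and those on no gene 7.40%.

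Cells under 250000 reads, over 25% unmapped or over 15% ERCC reads were removed, as in the article, and 172 of 175 remained. The labels' CMP low and high were read as P2- and P2+. A P2- CMP with a subtype label naming MEPs was kept. Wells with more than 1 cell were not searched for, and plates are not given in the sources used here.

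Counts were summed per population and divided by mouse reads. Where a population had 0 reads of a gene, 3 reads were taken as a floor. Intervals were exact Poisson (levels), exact conditional binomial (ratios), Clopper-Pearson (shares of cells) and, for the sum of 3 positions, by error propagation. PCR copies are not independent molecules, so that all cover counting error only. Positions and exon lengths are from GENCODE M21 (GRCm38), promoters from RefSeq. Exon windows of 70 bases were searched in all annotated transcripts. Thinning to 100000 reads left out 0 cells.

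Named were the catalytic pairs, activators, tissue-specific subunits, members past 1.5-fold in a comparison, the highest and lowest per length in each part, and genes of both lists, a few of which are not reported here. The members and lists were chosen with earlier results of these data known. Ratios and intervals were tested on simulated data. Python 3.11.15, scipy 1.17.1, R 4.3.3 and DESeq2 1.42.0 (size factors, as an alternative) were used.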

Additional observations from a re-analysis of the deposited data

Results flagged for a closer look

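Psmd9 was noted because its P2 difference had opposite signs in the compartments, with a log2 ratio of P2+ over P2- of -0.78 (-0.86 to -0.70) in MEPs and 0.54 (0.44 to 0.65) in CMPs, beside counting intervals that both leave out 0. The difference between these ratios was not tested, since each population is 1 sample, and the part of the overlapping gene Gm26745 in it was not tested.

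Reads were also present on pseudogenes that the rule left out. Over all cells Psmb5-ps had 10 reads, Psmb6-ps had 10 reads and Psmb6-ps2 had 15 reads, each above the floor of 3 reads, while Psmb7-ps2 had 0 reads.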

How the results depend on the processing

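No population has a replicate, and the values depend on 27 to 56 cells each. No paired analysis was possible because each population is 1 sample and no result comes from a test. Ratios of the 20 named members were recomputed under 6 alternatives (equal weight for every cell, size factors, another denominator, every deposited cell, without the leading cells, and without the P2- CMP of conflicting label). Of these 480 ratios 463 kept their sign, and of the 17 that did not, 1 had been past 1.5-fold (Psma8, below), while the others had been at most 0.36 from 0 on the log2 scale. Of 29 ratios past 1.5-fold, 23 were past it in all 6. With equal weight for every cell the immunoproteasome share of the catalytic subunits was 30.2% in P2- MEPs, 26.96% in P2+ MEPs and 27.3% in P2- CMPs, and as a share of reads it was 30.02%, 29.8%, 33.7% and, in P2+ CMPs, 31.01%. With DESeq2 size factors 11 members were at least 1.5-fold lower in P2- CMPs than in P2- MEPs (20.9% of all genes), with a median log2 ratio of -0.32, and the members' median of P2+ CMPs over P2+ MEPs was -0.058, while the medians of all genes moved by -0.10 and -0.11. Without the cell of highest CPM of each gene, 2 members were higher in P2+ than in P2- CMPs (23.4% of all genes), 3 were higher and 8 lower in P2- CMPs than in P2- MEPs (26.6% and 23.9%), the share in P2- CMPs was 27.6%, and the ratio of Psma8 between P2- CMPs and P2- MEPs turned from 0.62 to -0.025. In that setting the median of all genes between P2- CMPs and P2- MEPs moved by -0.16. At 2-fold, 2 members were higher and 0 lower in P2+ than in P2- MEPs (15% and 6.46% of all genes). In P2+ against P2- CMPs 0 were higher and 0 lower (9.79% and 9.33%). In P2- CMPs against P2- MEPs 2 were higher and 1 lower (22.5% and 9.28%), and in P2+ CMPs against P2+ MEPs 2 and 0 (17% and 10.3%). The cause of these changes was not tested. Levels in cells without marker reads were chosen after seeing the data.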
